A study of Mus musculus with 6 samples.

Results

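Cytosolic ribosomal proteins are the protein subunits of the ribosome that carries out translation in the cytoplasm. The 60 genes described here were those with a platform symbol of the form Rpl or Rps followed by a number, or Rplp0 to Rplp2, without the Rps6k kinases and without 1 pseudogene (Rps4l). They comprised 37 genes of the large subunit and 23 of the small subunit, with 89 probes in all, among 19057 genes with 1 symbol and 45281 probes on the array. Signals came from 6 Illumina 1-colour bead arrays, 1 per sample of sorted cells. The cells came from the epididymal fat pads of male Zfp423-GFP mice aged 5 weeks, in which a green fluorescent reporter marks expression of the zinc-finger factor Zfp423. The GFP-positive group and the GFP-negative group held 3 samples each. Both groups had been gated as positive for PDGFRβ, a receptor of perivascular and other stromal cells, and as negative for CD31 (endothelium) and CD45 (leukocytes), so the comparison lies within 1 gated population. The replicates were described as biological, and the number of animals behind each tube is not stated in the labels.

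Each ribosome contains 1 copy of nearly every ribosomal protein, and the genes are transcribed at high and coordinated levels in growing and resting cells alike. Their messenger RNAs typically begin with a C followed by a run of pyrimidines, the 5′ terminal oligopyrimidine (TOP) motif, through which the mTOR kinase and the RNA-binding protein LARP1 control their translation. Large-subunit proteins surround the peptidyl transferase centre and the exit tunnel, and small-subunit proteins surround the decoding site and the messenger RNA channel. A few have paralogs with narrower expression, such as Rpl3l in striated muscle and Rpl39l in male germ cells.

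This sequence feature was looked for in the genes measured here. RefSeq windows of GRCm38.p6, running from 250 bases before to 50 bases after the annotated start, were found for 50 of the 60 genes. A C followed by at least 4 pyrimidines (C or T), beginning within 10 bases of an annotated start on the transcribed strand, was present in 33 of the 50 (66.0%), against 34.4% of the 27025 genes with a window. Such a C lay exactly at an annotated start in 9 of the 50 (18.0%), against 3.01% of all genes. Neither count asked whether further pyrimidines came before the C, so the run itself could begin earlier. The hexamer CCGGAA, searched on both strands, lay in a window of 56.0% of the 50 genes and of 16.7% of all genes with a window. TATAAA, also on both strands, was found for 6 of the 50 and for 15.7% of all such genes. A match is a description of these letters and not of a binding site.

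The following 60-base stretches hold 40 bases before the annotated start and 20 from it on. They were chosen to show a tract with a C at the start (Rps6, Rpl28, Rpl35 and Rps15a) and a long tract with a C 1 base before it (Rpl27a). Also shown are genes of the small subunit without a tract (Rps3 and Rps4x) and the muscle paralog Rpl3l. Capitals mark the tract from the C nearest the annotated start that at least 4 pyrimidines follow. Pyrimidines of the same run before that C are left in lower case. Sequences run 5′ to 3′ on the gene's strand.
Rps6 (chr4:86857348-86857407, minus strand): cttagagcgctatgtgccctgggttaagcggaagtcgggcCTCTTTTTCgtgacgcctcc
Rpl28 (chr7:4792925-4792984, plus strand): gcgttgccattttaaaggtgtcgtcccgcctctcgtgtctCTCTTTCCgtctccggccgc
Rpl35 (chr2:39005112-39005171, minus strand): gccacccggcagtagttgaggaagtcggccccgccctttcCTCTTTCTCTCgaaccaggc
Rps15a (chr7:118116128-118116187, minus strand): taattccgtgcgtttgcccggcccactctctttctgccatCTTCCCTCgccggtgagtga
Rpl27a (chr7:109519155-109519214, plus strand): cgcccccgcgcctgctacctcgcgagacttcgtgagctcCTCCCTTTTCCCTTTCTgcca
Rps3 (chr7:99483690-99483749, minus strand): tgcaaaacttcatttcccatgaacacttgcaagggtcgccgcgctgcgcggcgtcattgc
Rps4x (chrX:102189372-102189431, minus strand): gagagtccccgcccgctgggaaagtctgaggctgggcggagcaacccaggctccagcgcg
Rpl3l (chr17:24727786-24727845, plus strand): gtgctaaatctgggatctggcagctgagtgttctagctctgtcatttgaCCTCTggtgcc

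In Rpl3l the only such run was 5 bases long and began 9 bases after the annotated start, and a second annotated start of this gene had none. Among the 45 ribosomal protein genes with both a window and a tested probe, the 29 with a tract had a median difference of -0.06 between the groups on the log2 scale, and the 16 without one had a median of -0.14. Both values are descriptions of genes measured in the same samples and were not tested against each other. The split rests on the annotated starts, since a tract whose C lay more than 10 bases away was not counted. Rpl4 and Rps25, counted as without a tract, hold pyrimidine runs upstream of the annotated start.

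Array facts that bear on these values were few. Median raw signals lay between 145.8 and 162.0 units per array, and 13068 to 14026 probes were detected per array (detection p under 0.01). Arrays of the same group correlated at 0.982 or more over the tested probes, and arrays of different groups at 0.948 to 0.960. Zfp423 differed by 0.12 ± 0.17 on its brighter probe (SE; limma, Benjamini-Hochberg adjusted p = 0.694). On its other tested probe, detected on 5 arrays, it differed by -0.02 ± 0.28 (limma adjusted p = 0.979), so neither probe separated the groups. All 6 arrays detected Pdgfrb, with 0.58 ± 0.11 more signal in GFP-positive cells (limma adjusted p = 0.0172). Ptprc (CD45) had no probe that was detected on any array, while 1 of the 3 Pecam1 (CD31) probes was detected on all 6 and the other two on none. In bulk RNA of this kind, fewer cells of a type and less RNA per cell cannot be told apart.

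Ribosomal protein transcripts were measured at nearly equal levels in both populations. Of the 60 genes, 54 could be tested (33 large-subunit and 21 small-subunit genes), and 51 of these were detected on all 6 arrays. With limma's moderated linear model and an adjusted p under 0.05 over all 13727 tested probes, 0 genes rose and 1 fell (Rpl30), where a gene is represented by its brightest tested probe. Across all 8819 tested genes the same rule called 15.8%, with 8.65% higher and 7.17% lower in GFP-positive cells. At an unadjusted p under 0.05, 1 ribosomal protein gene was higher and 6 were lower, against 15.1% and 15.7% of all tested genes (30.9% in all). Differences ran from -0.74 (Rps6) to 1.65 (Rpl3l), and 39 of the 54 lay within 0.2 of 0. The 95% interval excluded a 2-fold change in either direction for 51 of the 54 genes, against 81.1% of all tested genes. A change of 1.5-fold was excluded for 44 of the 54, against 50.6%. The spread between replicates was small for these genes, with a median pooled SD of 0.10 log2 units against 0.17 over all tested genes.

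**Figure D1:**
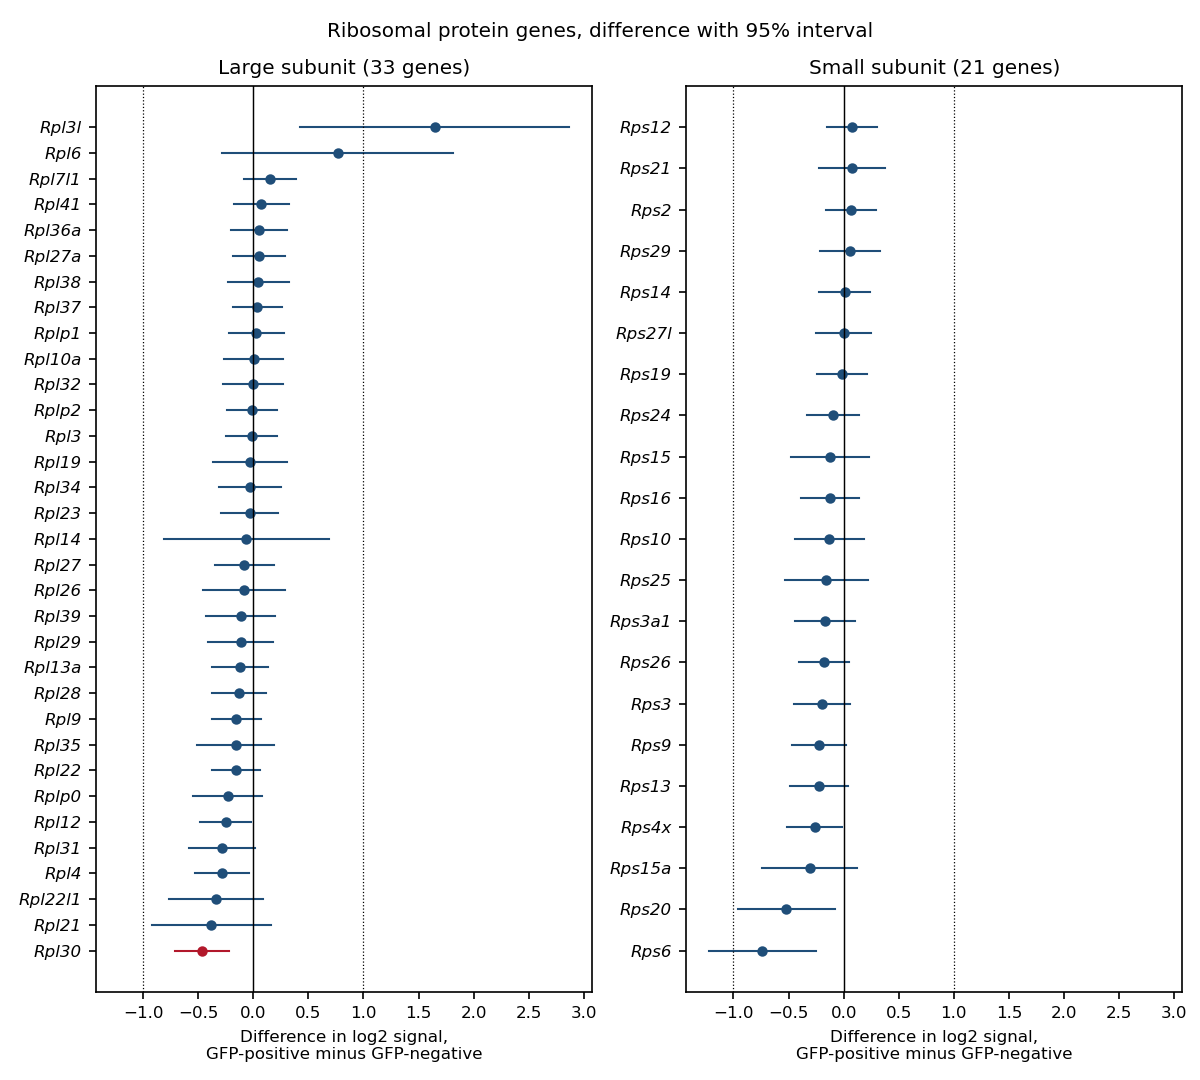
Difference in log2 signal between GFP-positive and GFP-negative cells (horizontal axis) for the 33 large-subunit and 21 small-subunit genes tested, each by its brightest probe, with points for the limma estimate, bars for the 95% interval and dotted lines at 2-fold. Rpl30, in red, was past the adjusted threshold, and the intervals of Rpl3l, Rpl6 and Rps6 alone reached beyond a 2-fold change.

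Small as they were, the differences leaned to lower values in GFP-positive cells. The estimate was negative for 38 of the 54 genes (70.4%), against 52.7% of all tested genes. The median difference was -0.06 for the large subunit, -0.13 for the small subunit and -0.02 for all genes. The arrays carry the letters RG or KM at the front of their titles, whose meaning the labels do not state. Within the RG arrays (2 GFP-positive, 1 GFP-negative) the medians were -0.12 for the large and -0.14 for the small subunit, and within the KM arrays (1 and 2) they were -0.06 and -0.15, with -0.02 for all genes in each. Of the 54 genes, 34 were negative within both. With each gene first centred on its own mean, the array medians over the 21 small-subunit genes were -0.06, 0.02 and -0.07 for GFP-positive against 0.11, 0.03 and 0.0016 for GFP-negative samples. Those over the 33 large-subunit genes were -0.07, 0.05 and -0.08 against 0.12, 0.03 and -0.04. On these centred medians the groups overlapped for both subunits, through GFP-positive replicate 2. Without centring, the small-subunit array medians did not overlap (12.76, 12.68 and 12.68 for GFP-positive against 12.81, 12.99 and 12.97), and the large-subunit ones did.

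How far this lean reached depended on how arrays were put on 1 scale. Subunit medians stayed negative under each of 7 choices (quantile, median, 75th percentile, no scaling, cyclic loess, no background correction, and the authors' normalized table), from -0.18 to -0.03 for the large and from -0.22 to -0.07 for the small subunit. The median of all genes moved as well, from -0.09 under 75th percentile scaling to 0.07 without scaling. Set against the median of all genes under the same choice, the large subunit lay between -0.10 and -0.02 and the small subunit between -0.13 and -0.11. The number of genes with a negative difference was 38 of 54 under quantile normalization, 51 under median and 75th percentile scaling, 37 under cyclic loess and 34 without scaling.

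**Figure D2:**
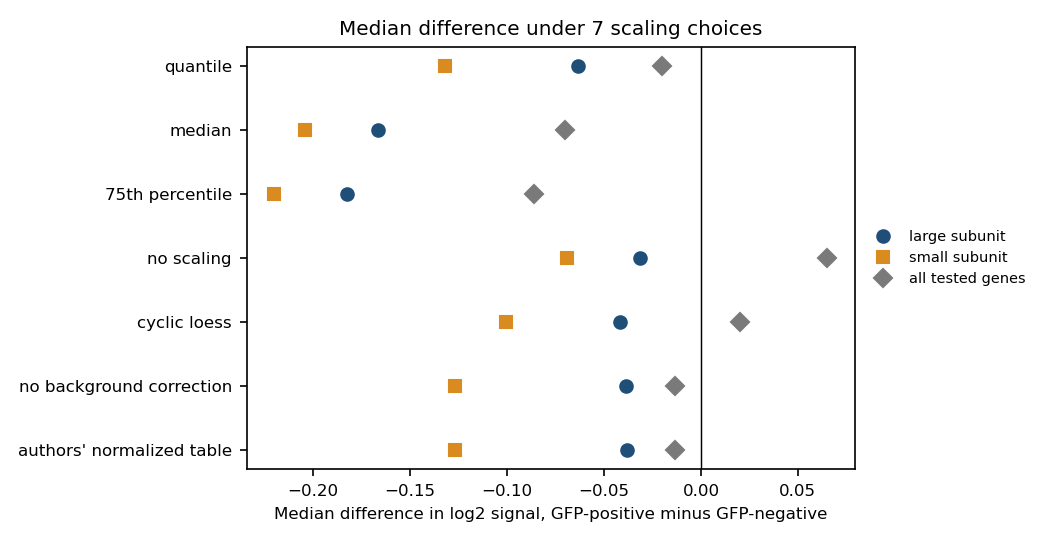
Median difference in log2 signal between GFP-positive and GFP-negative cells (horizontal axis) for the large-subunit genes, the small-subunit genes and all tested genes under 7 ways of scaling the arrays (vertical axis). The small-subunit median lies to the left of the large-subunit median, and both to the left of that of all genes, in each of the 7 rows, while the median of all genes crosses 0 with cyclic loess and without scaling.

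Rpl30, a small protein at the interface of the large subunit with the small one, was the gene past the threshold. Its brighter probe (ILMN_2878430) gave log2 signals of 8.46, 8.52 and 8.51 in the GFP-positive samples, against 9.01, 9.04 and 8.84 in the GFP-negative ones. The GFP-positive arrays were close to each other and all below the GFP-negative ones. The gene fell by 0.47 ± 0.10 (SE, n = 3 arrays a group; 95% interval -0.71 to -0.22; limma adjusted p = 0.0264), which is 1.38-fold lower. Within RG it was -0.52 and within KM -0.43. A second probe of the gene (ILMN_2878424) was not detected on any array. The adjusted p of Rpl30 was 0.0895 without scaling between arrays (difference -0.34). It was 0.0745, 0.0666 and 0.0590 without GFP-positive replicates 1, 2 and 3, and 0.0691 and 0.104 without GFP-negative replicates 1 and 2, with differences of -0.48 to -0.43. Without GFP-negative replicate 3 the call stood (-0.53, adjusted p = 0.0457).

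Rps6, the small-subunit protein phosphorylated by S6 kinases downstream of mTOR, had the most negative estimate among the 54 genes and missed the threshold. Its probe read 7.30, 7.84 and 7.57 in GFP-positive samples and 8.46, 8.51 and 7.94 in GFP-negative samples. The probe was dim, with raw signals of 291.9, 373.7 and 337.5 against 477.9, 467.4 and 356.8 units, where array medians were 145.8 to 162.0. The groups did not overlap, with GFP-negative replicate 3 only slightly above GFP-positive replicate 2. The difference was -0.74 ± 0.20 (95% interval -1.22 to -0.25; limma adjusted p = 0.0540), with -0.90 within RG and -0.66 within KM arrays. Of 18 alternative settings, 8 put it past the threshold, among them median scaling (adjusted p = 0.0484), 75th percentile scaling (0.0440) and the authors' normalized table (0.0359), where the difference was -0.46. Leaving out GFP-negative replicate 3 did so as well (-0.92, adjusted p = 0.0369), while leaving out any other array gave adjusted p values from 0.0565 to 0.173.

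**Figure D3:**
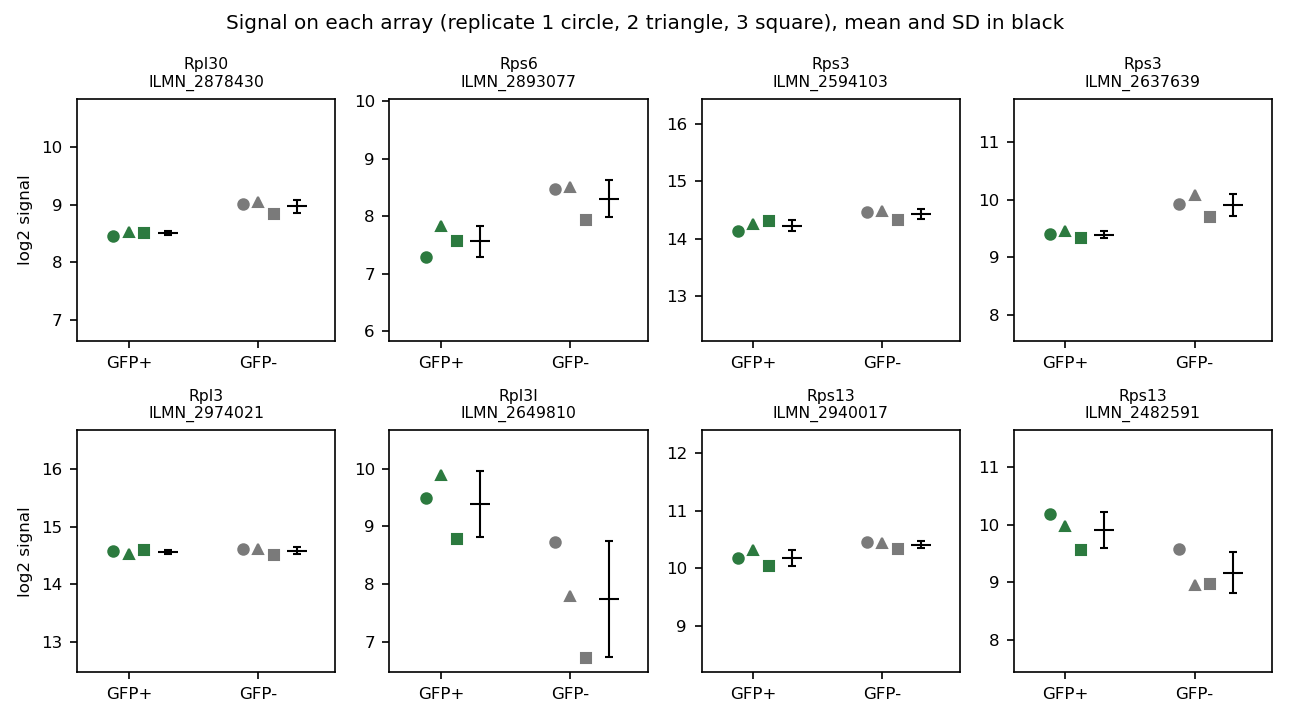
Normalized log2 signal (vertical axis, 4.2 units in every panel) on each of the 3 GFP-positive and 3 GFP-negative arrays for 8 probes, with the mean and SD of each group in black. Rpl30, Rps6 and both Rps3 probes lie lower on all GFP-positive arrays, Rpl3 is level beside its paralog Rpl3l, and the 2 Rps13 probes point in opposite directions.

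The remaining small-subunit genes named by size of difference were Rps20, Rps15a, Rps4x and Rps13, and none passed the threshold. Rps20, a protein of the subunit head, read 6.47, 5.998 and 5.91 against 6.68, 6.43 and 6.84, a difference of -0.52 ± 0.19 (limma adjusted p = 0.109). Detection reached 4 of the 6 arrays, and GFP-positive replicate 1 lay above GFP-negative replicate 2. Leaving out GFP-positive replicate 1 gave -0.70 (adjusted p = 0.0454), and the authors' normalized table gave -0.19 (adjusted p = 0.202). Rps15a differed by -0.31 ± 0.18 with overlapping groups. Rps4x, the X-linked copy of the S4 protein, read 13.60, 13.68 and 13.77 against 13.91, 14.04 and 13.88, which is -0.26 ± 0.10 without overlap (adjusted p = 0.144).

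Rps3, which lines the messenger RNA entry channel, was measured by 2 probes with different calls. The brighter probe (ILMN_2594103) read 14.13, 14.26 and 14.30 against 14.47, 14.48 and 14.33, a difference of -0.20 ± 0.11 (limma adjusted p = 0.261). The dimmer probe (ILMN_2637639) read 9.40, 9.45 and 9.33 against 9.92, 10.08 and 9.70 and was lower by -0.51 ± 0.13 (adjusted p = 0.0402). Neither probe's groups overlapped, and both pointed down. The call of the dimmer probe stood without GFP-negative replicate 3 (-0.61, adjusted p = 0.0399) and was lost without any other single array (-0.54 to -0.42, adjusted p = 0.0820 to 0.129). It was also lost with the title letters as a block (-0.53, adjusted p = 0.0635), without scaling (-0.41, adjusted p = 0.0788) and with cyclic loess (-0.47, adjusted p = 0.0530), and in 10 of 18 alternatives in all.

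Rpl29, a small basic protein of the large subunit, showed the same arrangement. Its brighter probe (ILMN_2857570) differed by -0.12 ± 0.13 with overlapping groups (limma adjusted p = 0.579). Its dimmer probe (ILMN_2730005), detected on 5 arrays, read 6.33, 6.29 and 6.20 against 6.63, 6.64 and 6.70 and was lower by -0.38 ± 0.10 (adjusted p = 0.0410). Those groups did not overlap, but the call was lost with any 1 array left out (-0.41 to -0.34, adjusted p = 0.0762 to 0.123). It was also lost with the authors' normalized table, where the difference was -0.14 (adjusted p = 0.247), with the title letters as a block (-0.39, adjusted p = 0.0653), and in 15 of 17 alternatives in all.

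The probes of Rps13, a small-subunit protein that contacts the large subunit, disagreed in direction. The brighter probe (ILMN_2940017) read 10.18, 10.31 and 10.05 against 10.45, 10.43 and 10.33, a difference of -0.23 ± 0.11 without overlap (limma adjusted p = 0.220). The other (ILMN_2482591) read 10.18, 9.97 and 9.57 against 9.58, 8.95 and 8.97, a difference of 0.74 ± 0.23 (adjusted p = 0.0736). GFP-positive replicate 3 and GFP-negative replicate 1 were almost equal on that probe, and the other arrays separated. It was past the threshold under 7 of 18 alternatives, among them without GFP-negative replicate 1 (0.94, adjusted p = 0.0323). Where on the transcripts these probes lie, and whether they also bind other loci, was not checked here.

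Over the 76 tested probes, 3 were called lower (Rpl30 and the dimmer probes of Rpl29 and Rps3) and 0 higher, against 7.77% and 7.85% of all 13727 tested probes (15.6% in all, limma). At an unadjusted p under 0.05, 13 member probes were lower and 3 higher, against 17.3% and 13.6% of all tested probes, so the lower share was near the background. Dim probes departed more from 0 than bright ones, among the members as over the whole array. The median size of the difference, without its sign, was 0.34 for member probes with a mean log2 signal under 8, 0.28 between 8 and 12 and 0.07 at 12 or more, against 0.30, 0.22 and 0.14 over all tested probes. The 38 member probes with a mean log2 signal of 12 or more had a median difference of -0.03, with 24 negative and 0 called. The 25 probes between 8 and 12 had a median of -0.23 with 21 negative and 2 called, and the 13 below 8 had a median of -0.23 with 11 negative and 1 called. Over all tested probes the medians in these classes were -0.02, -0.04 and -0.08, and 11.6%, 15.5% and 17.4% were called. Across the 76 member probes, mean signal and difference had a Spearman rho of 0.41 and a Pearson r of 0.12. Both describe probes that share the same 6 arrays, and several share a gene. Over all tested probes rho was 0.06 and r was 0.0065.

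The 15 genes with more than 1 tested probe (37 probes) gave the same comparison within a gene. In 9 of the 15 all probes pointed the same way, and in 9 the dimmest probe had the lower difference of the brightest and dimmest pair. Rpl27a, a large-subunit protein, had probes from 0.05 (the brightest) to -0.41, and the probe at -0.41 read 11.51, 11.57 and 11.53 against 11.86, 12.12 and 11.87, with an adjusted p of 0.0504 (limma). Those groups were fully apart. Rpl21 was negative on all 3 of its probes (-0.38, -0.52 and -0.63) and Rpl31 on all 3 of its own (-0.28, -0.08 and -0.48). In the other 6 genes (Rpl4, Rpl7l1, Rpl28, Rplp0, Rps13 and Rps24) the dimmest probe had the higher difference, for example in Rpl28 with -0.13 on the brighter and 0.28 on the dimmer probe. Signs differed between probes in Rpl23, Rpl27a, Rpl28, Rps2, Rps12 and Rps13. The 4 probes of Rpl23 ran from -0.41 to 0.06. Rps2 had 0.07 on its brighter and -0.21 on its dimmer probe, and Rps12 had 0.08 and -0.11. The highest signal of a member on any array was 33074.6 units (Rps2), below the highest of any probe, 38404.9, and whether the brightest beads were near their upper limit was not tested.

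**Figure D4:**
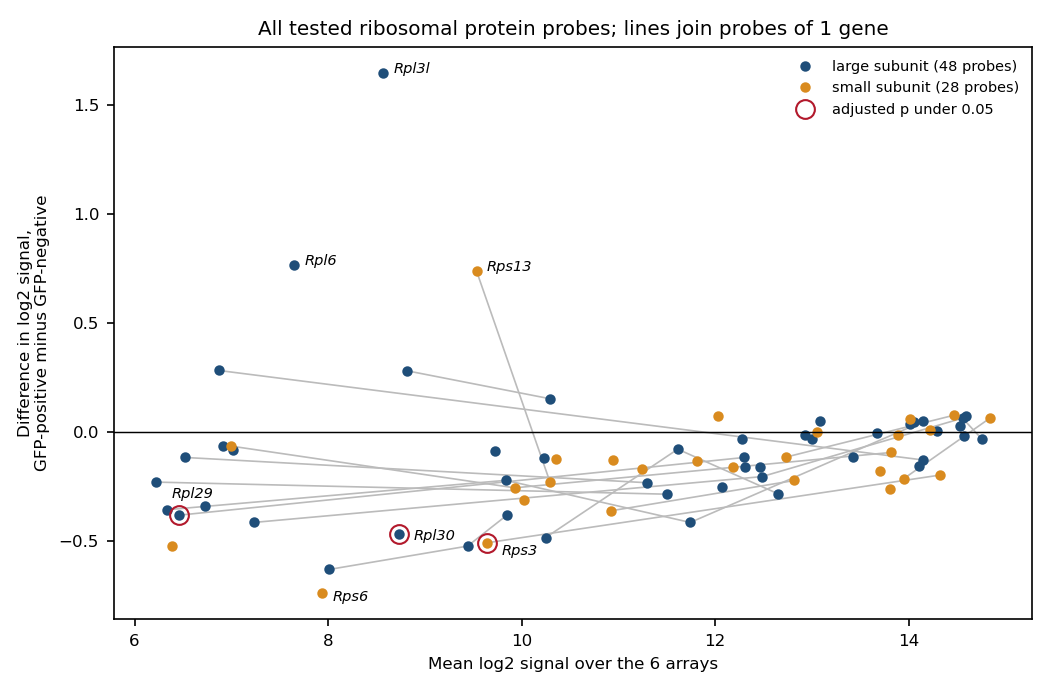
Difference in log2 signal between GFP-positive and GFP-negative cells (vertical axis) against mean log2 signal over the 6 arrays (horizontal axis) for all 76 tested ribosomal protein probes, with grey lines joining probes of 1 gene and rings around the 3 called probes. Bright probes gather near 0, and the wider departures, in both directions, lie at lower signal.

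Rpl3l, the striated-muscle paralog of Rpl3, had the most positive estimate. Its raw signals were 853.1, 1124.6 and 606.5 units in GFP-positive samples against 544.0, 329.8 and 222.7 in GFP-negative samples. The groups did not overlap, but GFP-positive replicate 3 was close to GFP-negative replicate 1, and the GFP-negative arrays were spread widely. On the normalized log2 scale the difference was 1.65 ± 0.51 (95% interval 0.43 to 2.87; limma adjusted p = 0.0762), with 0.97 within RG and 1.53 within KM arrays. It ran from 1.13 without GFP-negative replicate 3 to 2.13 without GFP-negative replicate 1, where it passed the threshold (adjusted p = 0.0282), as it did in 4 of the 18 alternatives in all. With the authors' normalized table it was 1.14 (adjusted p = 0.0299). Rpl3 itself, a core protein next to the peptidyl transferase centre, differed by -0.02 ± 0.10.

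Skeletal and smooth muscle genes were set beside Rpl3l. Of 12 skeletal muscle genes, a list written after Rpl3l had been seen, 7 were tested, 0 rose and 1 fell (Tnnt3, fast troponin T, by -1.70 ± 0.21, limma adjusted p = 0.0030), with a median of 0.06 and 0 higher at an unadjusted p under 0.05. Their summed level was 10.69 to 11.04 on the GFP-positive and 10.88 to 11.11 on the GFP-negative arrays (log2), and Ckm, Myh1, Myh4, Pvalb and Tnni2 were detected on no array. Of 12 mural cell genes (pericytes and smooth muscle), 7 were tested and 6 rose, including Myh11 (1.80 ± 0.22, adjusted p = 0.0028) and Acta2 (0.95 ± 0.18, adjusted p = 0.0159). The summed mural level was 13.03 to 13.63 on the GFP-positive and 12.16 to 12.59 on the GFP-negative arrays. Its part in the Rpl3l difference was not tested.

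None of the other paralogs among the 54 tested genes passed the threshold. Rpl22l1 read 6.25, 6.83 and 6.61 against 6.98, 6.67 and 7.06, a difference of -0.34 ± 0.18 with overlapping groups, and its parent Rpl22 differed by -0.16 ± 0.09. Rps27l, a paralog of Rps27 induced by p53, differed by 0.0002 ± 0.10. Rpl7l1 was higher on all GFP-positive arrays with both probes, by 0.15 ± 0.10 and 0.28 ± 0.11, and neither passed the threshold (limma adjusted p = 0.343 and 0.137). Rpl39l was detected on no array, while Rpl39 was detected on all 6 and differed by -0.12 ± 0.13.

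Among large-subunit genes with larger but uncalled differences, Rpl6 had the second most positive estimate. It read 8.24, 7.77 and 8.10 against 7.87, 7.77 and 6.17, a difference of 0.77 ± 0.44 (limma adjusted p = 0.291). GFP-negative replicate 3 stood far below the other arrays, and without it the difference was 0.22. Rpl4, which reaches into the exit tunnel, read 11.41, 11.26 and 11.42 against 11.65, 11.59 and 11.70, lower on all GFP-positive arrays by -0.28 ± 0.10 (adjusted p = 0.110). Rpl12, at the base of the stalk, did so by -0.25 ± 0.10 (adjusted p = 0.137). The stalk proteins, which recruit elongation factors, did not pass the threshold, with -0.23 ± 0.13 for Rplp0 (overlapping groups), 0.03 for Rplp1 and -0.01 for Rplp2.

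Counted over the 54 genes, the groups did not overlap for 3 genes that were higher (Rpl3l, Rpl7l1 and Rps12) and 11 that were lower in GFP-positive cells, against 17.7% and 18.8% of all tested genes (36.5% in all). The 11 were Rpl4, Rpl9, Rpl12, Rpl22 and Rpl30 of the large and Rps3, Rps4x, Rps6, Rps9, Rps13 and Rps26 of the small subunit. The share of the lower ones is close to that of all genes. Rps12 was higher on its brighter probe (0.08), while its other tested probe differed by -0.11.

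The 6 genes not tested were Rpl7a, Rpl17, Rpl24 and Rpl39l of the large and Rps7 and Rps23 of the small subunit. Rps7 was detected on 1 array, and its signals were 160.1, 201.4 and 167.0 against 194.7, 179.4 and 204.0 units. The other 5 were detected on no array, with signals from 128.9 to 176.7 units. Whether these probes report their transcripts was not checked, so the readings give no level for these genes. Another 7 undetected probes belonged to 6 tested genes (Rpl30, Rpl37, Rpl38, Rplp2, Rps19 and Rps24).

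Ribosomal protein genes that the naming rule leaves out were looked at separately. Rpl36al, an autosomal paralog of the X-linked Rpl36a, read 9.97, 10.01 and 9.95 against 10.58, 10.79 and 10.62. The groups lay well apart, and the gene fell by 0.68 ± 0.10 (limma adjusted p = 0.0066), with -0.58 within RG and -0.75 within KM arrays. The call stood in all 18 alternatives. Rpl36a differed by 0.05. Rpsa was detected on no array.

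Genes that build ribosomes or use them changed in small numbers. Beside the counts of these lists stand the shares over all tested genes, 8.65% called higher and 7.17% lower. At an unadjusted p under 0.05 (limma) those shares were 15.1% and 15.7%. Of 13 tested genes of RNA polymerase I transcription, 0 rose and 1 fell (1 and 1 at an unadjusted p under 0.05). That was Myc, a transcription factor that drives ribosome production, which read 6.19, 6.51 and 6.36 against 7.51, 7.46 and 7.35 and fell by 1.09 ± 0.12 (limma adjusted p = 0.0018). It was detected on 2 GFP-positive and 3 GFP-negative arrays, and its groups were a full unit apart on average. Of 61 tested genes of nucleolar RNA processing and subunit assembly, 1 rose and 2 fell, with a median of -0.05. Of these 61, 3 were higher and 6 lower at an unadjusted p under 0.05 (limma). Noc3l, known from yeast to act in maturation of the large subunit, fell by 1.12 ± 0.09 (adjusted p = 0.000607, detected on 2 and 3 arrays), Nop2, a ribosomal RNA methyltransferase, fell by 0.53 ± 0.14 (0.0467), and Imp3, a component of the small-subunit processome, rose by 0.51 ± 0.10 (0.0150). The Nop2 call stood without GFP-positive replicate 3 (-0.65, adjusted p = 0.0286) and was lost with any other array left out (-0.58 to -0.44, adjusted p = 0.107 to 0.117). With the title letters as a block its adjusted p was 0.0910 (-0.50), and it was lost in 11 of 18 alternatives in all. That of Imp3 was lost without GFP-negative replicate 2 (0.50, adjusted p = 0.0654) or 3 (0.50, adjusted p = 0.0583). With the authors' normalized table, the differences of the dim Myc and Noc3l probes were -0.49 (adjusted p = 0.0040) and -0.51 (adjusted p = 0.0024).

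Of 34 tested initiation factors, 0 rose and 1 fell (Eif2a, by 0.40 ± 0.11, limma adjusted p = 0.0471), with a median of -0.11. At an unadjusted p under 0.05, 1 of the 34 was higher and 5 were lower, against 15.1% and 15.7% of all tested genes. The Eif2a call was lost with any 1 array left out (-0.45 to -0.35, adjusted p = 0.0667 to 0.123), with the title letters as a block (-0.43, adjusted p = 0.0547), and in 11 of 18 alternatives in all. Of 12 elongation and termination factors, 1 rose, Gspt2, a paralog of the release factor eRF3, by 1.20 ± 0.14 (adjusted p = 0.0021), and 0 fell (1 lower at an unadjusted p under 0.05), with a median of -0.17. Eef1a1, the aminoacyl-tRNA carrier and a TOP messenger itself, differed by 0.03 ± 0.10. Of 16 tested genes of TOP messenger control, 1 rose and 1 fell, with a median of -0.21 and 11 of the 16 negative. At an unadjusted p under 0.05, 2 of the 16 were higher and 5 lower, against the same 15.1% and 15.7%. Deptor, an inhibitor within mTOR complexes, read 10.44, 10.09 and 10.30 against 9.42, 9.38 and 9.16 and rose by 0.96 ± 0.13 (adjusted p = 0.0046). Mtor, the kinase itself, read 10.80, 10.78 and 11.03 against 11.43, 11.33 and 11.33 and fell by 0.49 ± 0.11 (adjusted p = 0.0287). Groups were apart for both. The Mtor call stood without GFP-positive replicate 3 (-0.58, adjusted p = 0.0269) and was lost with any other array left out (-0.51 to -0.45, adjusted p = 0.0759 to 0.0888). It was also lost with the title letters as a block (-0.47, adjusted p = 0.0585) and without scaling (-0.42, adjusted p = 0.0591), and in 8 of 18 alternatives in all. Larp1, the repressor of TOP translation, differed by -0.58 ± 0.21 with overlapping groups (adjusted p = 0.115).

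Among the mitochondrial counterparts, a list added with the others' results known, 68 genes were tested, 3 rose and 0 fell, and the median was -0.02. At an unadjusted p under 0.05, 6 of the 68 were higher and 2 lower, against 15.1% and 15.7% of all tested genes. Mrpl47 rose by 1.15 ± 0.13 (limma adjusted p = 0.0018), detected on all GFP-positive arrays and on 1 GFP-negative array, Mrpl46 by 0.70 ± 0.17 (0.0361) and Mrps34 by 0.40 ± 0.11 (0.0475).

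Markers of other cell types moved between the same groups, and their part in the ribosomal protein values was not tested. Of 12 endothelial genes, 10 were tested, 1 rose (Eng) and 1 fell (Tek, by 1.64 ± 0.12). The median difference was 0.16 with 3 of the 10 negative, and 2 were higher and 1 lower at an unadjusted p under 0.05 (limma). Their summed level was nevertheless lower in GFP-positive cells, at 12.55 to 12.70 on GFP-positive and 13.52 to 13.66 on GFP-negative arrays. Of 11 leukocyte genes, 4 were tested and 2 rose (Lyz2 and Csf1r), with summed levels of 9.72 to 10.09 against 8.31 to 9.29. Of the 4, 1 was negative, and 2 were higher and 1 lower at an unadjusted p under 0.05 (limma). Ptprc, Adgre1, Cd3e, Cd52, Cd74, Itgam and Tyrobp were detected on no array. No tested adipocyte (2), mesothelial (3) or erythroid (3) gene passed the threshold in limma (0 at an unadjusted p under 0.05), and Plin1, Fabp4 and Lep were detected on no array.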

How the data were processed

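Per the file headers, the deposited non-normalized table holds 1 intensity per probe and array on a linear scale, each with a detection p-value that the authors' software set against negative control beads. Per the submitters' processing notes GenomeStudio was used, with its version not given in the sources used here. Amplification of the RNA took 2 rounds, per the labels' protocols. A second deposited table holds the authors' normalized intensity values, and its columns share 1 distribution. Genome build and probe positions were not given in the sources used here.

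Signals were background-corrected with neqc in limma 3.58.1 (R 4.3.3), which infers control beads from detection p-values, followed by an offset of 16, quantile normalization and log2. Without background correction the differences of dim probes are smaller by construction. The 13727 probes whose detection p was below 0.01 for 3 or more of the 6 arrays were tested (lmFit, then eBayes, 2-sided). P-values were adjusted over these probes by Benjamini-Hochberg and read at 0.05. A gene stands for its brightest tested probe. Probes with several symbols (18) or none (10378) were left out of gene counts. All differences are GFP-positive minus GFP-negative on the log2 scale, and an SE is that of the fit. The number of arrays limits the precision. The procedure was tested on simulated data.

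Named were all called members, members with probes of unlike calls or signs, up to 5 uncalled members per subunit with the largest differences, paralogs, undetected members, and up to 4 called genes per related list. Members, lists and tests were chosen with earlier results of these data known. Named after their values were seen were Rpl21, Rpl23, Rpl27a, Rpl28, Rpl31, Rpl12, Rps2, Rps7, Eef1a1, Larp1 and the members whose groups did not overlap. So were the skeletal muscle and mitochondrial lists. Alternatives covered scaling, background, the authors' table, detection filters, the title letters and the replicate number as blocks, each array left out, array weights, an intensity trend combined with robust priors, thresholds of 0.01 and 0.10, and averaging the probes of a gene. The dimmest probe of a gene was added after the data had been seen. Promoter windows are RefSeq sequences of GRCm38.p6.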

Additional observations from a re-analysis of the deposited data

How the results depend on the processing

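No result changed sign among those called. Over 54 genes, small-subunit genes called higher stayed at 0 under every alternative run (limma). In the main setting 0 were higher at an unadjusted p under 0.05 as well. Large-subunit genes called higher numbered 1 instead of 0 (Rpl3l) with the authors' normalized table, no background correction, the replicate block and a threshold of 0.10. Large-subunit genes called lower numbered 0 instead of 1 without scaling, with the replicate block and at 0.01, and 2 with each gene's dimmest probe. Small-subunit genes called lower numbered 1 instead of 0 with the authors' table, no background correction, median or 75th percentile scaling, detection on all 6 arrays, array weights, probe means, the dimmest probe and 0.10, and 2 with an intensity trend and robust prior. The small-subunit median was -0.22 under 75th percentile scaling. Member probes called higher rose from 0 to 2 with the authors' table, no background correction, the replicate block and 0.10, and to 1 without scaling, with the title letters as a block, the intensity trend and array weights. Member probes called lower (3) numbered 6 with the authors' table and without background correction, 7 with the intensity trend and at 0.10, 5 with array weights, 1 with cyclic loess and with the title letters, and 0 without scaling, with the replicate block and at 0.01. Related genes called lower (6) numbered 3 without scaling, with either block and at 0.01, and 10 with the intensity trend, at 0.10 and with the dimmest probe, and those called higher (3) numbered 5 at 0.10. Over all genes, the 763 higher calls became 381 at 0.01, and the 632 lower calls became 409 without a detection filter, 383 with the replicate block, 208 at 0.01 and 1006 at 0.10. Over all probes, 1078 higher calls became 525 at 0.01, and 1066 lower calls became 675 without scaling, 690 without the filter, 637 with the block, 329 at 0.01 and 1694 at 0.10. Higher calls made up 54.7% of gene calls with quantile normalization and 68.9% without scaling.

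With 1 array left out, genes called ranged from 450 to 693 higher and 223 to 534 lower, and probes from 639 to 969 higher and 359 to 879 lower. Large-subunit genes ranged from 0 to 1 in each direction, small-subunit genes from 0 to 1 lower, member probes from 0 to 2 higher and 0 to 3 lower, and related genes from 2 to 3 higher and 3 to 6 lower. The medians ranged from -0.12 to -0.03 (large) and -0.17 to -0.08 (small). Fewer arrays are part of each such setting. For the other changes the cause was not tested. Replicate numbers did not pair the samples: deviations of same-numbered samples correlated at -0.07, -0.20 and 0.07. The highest of all 9 correlations between the groups was 0.25 (GFP-positive replicate 2 with GFP-negative replicate 1). The next was 0.16 (GFP-positive replicate 3 with GFP-negative replicate 2). In both pairs the titles share their letters and carry neighbouring numbers, and pairing by title was not tested. The replicate block shows only the effect of a shared number. With that block Rpl30 had an adjusted p of 0.0813 (limma). Signal over background limits the dim probes, and 6 of the 60 genes could not be tested.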
